A study of Mus musculus with 9 samples.

Results

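Krüppel-like factors are transcription factors with zinc fingers at the carboxyl end that bind GC-rich sequence of the CACCC and GC box kind. The 7 members described here are Klf2, Klf3, Klf4, Klf6, Klf7, Klf10 and Klf13, matched by gene symbol among the 55487 gene IDs of each count table; all 7 were found, and all 7 passed the filter on low counts that left 18341 genes for testing. RNA was sequenced from splenic monocytes of C57BL/6 mice, sorted and not treated, at 40000 to 50000 cells per library. The 9 libraries form 3 groups of 3. KO Ly6Clo are Ly6Clo (nonclassical) monocytes of mice with the genotype Cebpa +37-/-, which lack the +37 element of Cebpa on both alleles, and the labels give no limit to a tissue. WT Ly6Clo and WT Ly6Chi (classical) monocytes came from wild-type mice. Cebpa encodes the myeloid transcription factor C/EBP-alpha. Neither the age of the mice nor whether replicates were separate animals is given in the labels, so a p-value here speaks only of the spread among libraries, part of which may be technical.

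In mice, Klf4 is needed for the formation of monocytes, and Klf2 acts on an enhancer of Nr4a1, the nuclear receptor on which Ly6Clo monocytes depend. Klf2 also restrains inflammatory activation in monocytes and keeps T cells quiescent, whereas Klf6 promotes inflammatory gene expression in macrophages. Klf3 represses transcription with the corepressor CtBP, Klf10 was found as a gene induced early by TGF-beta, and Klf13 was described as a factor for Ccl5 in T cells. Several of these genes are themselves induced within minutes of a stimulus.

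RefSeq windows on GRCm38.p6, from 250 bases before to 50 after the transcription start, were found for 6 of the 7 members, the exception being Klf10. The windows of Klf2, Klf4, Klf6 and Klf3 are shown because these 4 genes moved together across the libraries, as given below, and that of Klf13 because it did not move with them. Each is written 5′ to 3′ on the strand of the gene, with matches to the letters searched in capitals: Klf2 chr8:72318812-72319111 on the plus strand, Klf4 chr4:55532426-55532725 on the minus strand, Klf6 chr13:5861239-5861538 on the plus strand, Klf3 chr5:64803271-64803570 on the plus strand and Klf13 chr7:63938866-63939165 on the minus strand.
Klf2: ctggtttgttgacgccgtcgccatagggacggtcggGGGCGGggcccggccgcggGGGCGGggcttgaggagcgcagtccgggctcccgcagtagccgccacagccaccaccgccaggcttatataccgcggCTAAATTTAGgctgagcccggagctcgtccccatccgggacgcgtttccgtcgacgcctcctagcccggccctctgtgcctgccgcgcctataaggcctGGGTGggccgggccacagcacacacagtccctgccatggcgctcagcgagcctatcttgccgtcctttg
Klf4: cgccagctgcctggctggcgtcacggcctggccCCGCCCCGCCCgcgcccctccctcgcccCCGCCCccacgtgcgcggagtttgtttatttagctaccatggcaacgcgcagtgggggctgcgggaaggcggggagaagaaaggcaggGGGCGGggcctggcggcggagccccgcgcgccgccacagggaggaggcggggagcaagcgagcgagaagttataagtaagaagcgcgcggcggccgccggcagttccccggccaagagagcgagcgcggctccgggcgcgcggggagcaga
Klf6: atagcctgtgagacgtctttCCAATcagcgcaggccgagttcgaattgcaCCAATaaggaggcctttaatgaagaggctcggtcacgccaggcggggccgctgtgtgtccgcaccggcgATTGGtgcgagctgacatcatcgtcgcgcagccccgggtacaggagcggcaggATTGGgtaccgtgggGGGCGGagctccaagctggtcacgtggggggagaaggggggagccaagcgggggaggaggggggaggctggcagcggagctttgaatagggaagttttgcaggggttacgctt
Klf3: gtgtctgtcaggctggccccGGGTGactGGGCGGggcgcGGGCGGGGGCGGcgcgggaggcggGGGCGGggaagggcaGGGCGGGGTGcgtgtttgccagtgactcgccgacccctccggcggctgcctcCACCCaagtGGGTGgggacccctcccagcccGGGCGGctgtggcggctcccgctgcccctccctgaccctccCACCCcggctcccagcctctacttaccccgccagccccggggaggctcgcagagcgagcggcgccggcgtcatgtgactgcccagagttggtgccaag
Klf13: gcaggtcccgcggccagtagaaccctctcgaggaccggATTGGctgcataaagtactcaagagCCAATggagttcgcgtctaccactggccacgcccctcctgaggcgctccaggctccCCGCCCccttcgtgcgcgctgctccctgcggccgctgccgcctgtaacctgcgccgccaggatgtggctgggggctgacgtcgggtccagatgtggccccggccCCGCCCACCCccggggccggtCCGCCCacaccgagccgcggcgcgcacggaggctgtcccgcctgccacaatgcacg
Matches were counted on both strands, and neighbouring matches can share bases. GGGCGG, the GC box, stood in all 6 member windows, Klf7 included, against 35.7% of the 32851 windows of all genes. It had 6 matches in Klf3, 4 in Klf4 and 1 in Klf6. CACCC, the other sequence bound by the family, stood in the windows of Klf2, Klf3, Klf7 and Klf13 and in 57.5% of all windows. CCAAT stood in Klf6, with 4 matches, and in Klf13, with 2, and in 37.4% of all windows. The consensus site of the MEF2 factors, which induce Klf2 in endothelium, was matched in Klf2 alone among the members, with its first base 118 bases before the start, and in 3.19% of all windows. In the Klf2 window above it is the 10-letter run in capitals. None of the 6 windows held TATAAA (13.6% of all windows), the cyclic AMP response element TGACGTCA (1.79%), the AP-1 site TGANTCA (7.81%), TTGCNNAA, a C/EBP site (10.8%), or the CArG box of serum response factor (1.63%). The member windows were 58.3% to 76.7% G or C, against a median of 52.7% over all windows, and motifs made of G and C are found more easily in such sequence.

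Library totals ran from 48.1 to 173.7 in units of 1000000 counts, so that 3 counts equal 0.0173 to 0.0623 CPM (counts per 1000000), and each member had between 437 and 279904 counts in a library. Levels below are CPM on library sizes scaled by TMM (trimmed mean of M-values), except where TPM, which corrects for gene length, is named. The sorted subsets carried their markers: all 9 genes of the Ly6Chi marker list were called lower and 8 of 12 genes of the Ly6Clo list higher in WT Ly6Clo against WT Ly6Chi. In KO Ly6Clo against WT Ly6Chi these were 7 of 9 lower and 8 of 12 higher. In KO Ly6Clo against WT Ly6Clo 0 of the 12 Ly6Clo markers had a positive fold change, as 52.6% of all genes did. Their median was -0.33 on the log2 scale, and 0 were called. Of the 9 Ly6Chi markers 3 were positive there and 1, Mgst1, was called lower. These calls are no independent check of identity. Ly6c2 is on the Ly6Chi list, and the lists were chosen with earlier results of these data known. Cebpa stood at 3.22 ± 0.709 CPM in KO Ly6Clo, 18.3 ± 0.768 in WT Ly6Clo and 44.8 ± 11.5 in WT Ly6Chi (SD, n = 3 each). WT Ly6Chi replicate 3 differed from the other 8 libraries in sex-linked genes, with 30.0 CPM of Xist and none of Ddx3y, Eif2s3y and Kdm5d. The other 8 carried these 3 genes of the Y chromosome and almost no Xist, so this library came from other mice. The labels do not give the sex. Replicate 1 of every group was low in a list of 16 immediate early genes, which stimuli and handling induce within minutes. Their summed level was 3108, 16214 and 14983 CPM over the KO Ly6Clo libraries, in replicate order, 4189, 31772 and 16577 CPM over WT Ly6Clo, then 2420, 20111 and 20950 CPM over WT Ly6Chi. In bulk RNA, fewer cells that express a gene and less RNA per cell cannot be told apart.

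Klf2 was the most abundant member in every library. Its TPM averaged 2750 ± 734 in KO Ly6Clo, 2369 ± 199 in WT Ly6Clo and 1306 ± 501 in WT Ly6Chi (SD, n = 3 each), and it ranked between the 26th and the 171st of all genes. It made up 56.6% to 70.2% of the summed TPM of the 7 members. The order of the levels was the same in KO Ly6Clo and WT Ly6Clo monocytes, from Klf2 through Klf6, Klf10, Klf3, Klf4 and Klf13 to Klf7. In both groups Klf3 overlapped Klf4 in its range over the replicates, and Klf4 overlapped Klf13, while the other neighbours in the order did not overlap. In WT Ly6Chi monocytes Klf13 stood before Klf4, and only Klf2 and Klf6, Klf10 and Klf3, and Klf4 and Klf7 were neighbours without overlap. Klf7 was the lowest, at 10.8 ± 3.46 TPM in KO Ly6Clo, 8.34 ± 2.08 in WT Ly6Clo and 4.45 ± 1.47 in WT Ly6Chi. Together the 7 members held 94.7% to 98.4% of the TPM of all 17 Klf genes in a library.

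**Figure D1:**
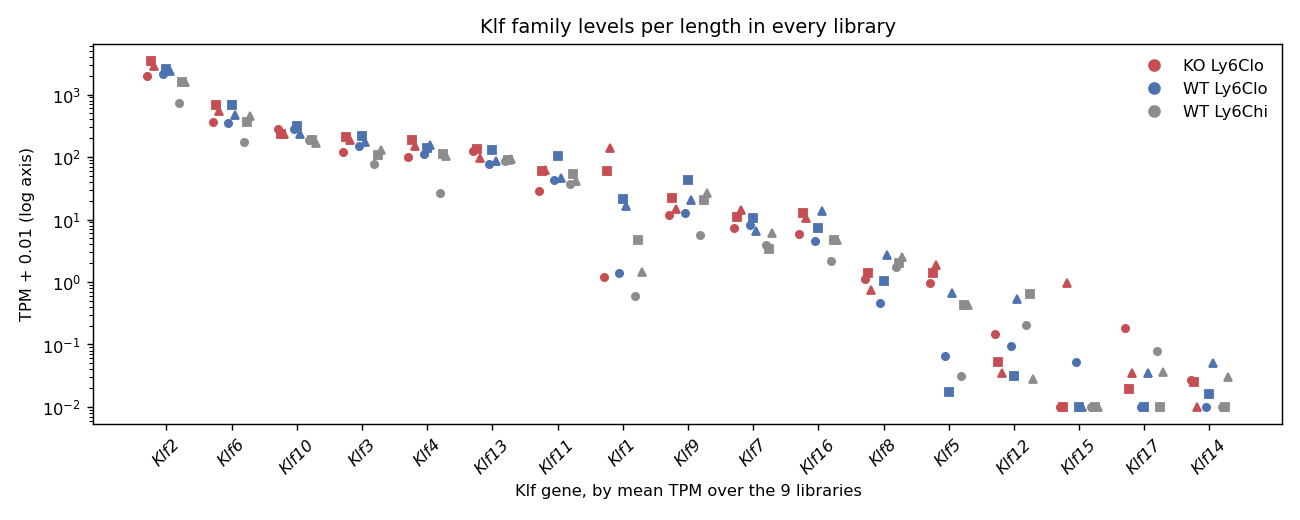
Levels of the 17 Klf genes in TPM plus 0.01 on a log axis, one point per library (circle, square and triangle for replicates 1, 2 and 3), with the genes ordered by their mean over the 9 libraries. Klf2 lies above all others in each library and Klf1 spreads widely between the replicates of each group.

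The deletion was compared first within the Ly6Clo subset, where no member passed the test. Of the 7 members, 0 passed the quasi-likelihood test of edgeR at an adjusted p under 0.05 in KO Ly6Clo against WT Ly6Clo, where 0.0709% of all genes did, and 0 had an unadjusted p under 0.05 (6.16% of all genes). DESeq2 and limma-voom also called 0 (1.51% and 0.0872% of all genes). The 7 fold changes were mixed in sign, positive for Klf2, Klf7 and Klf13, with a median log2 fold change of -0.00 against 0.03 over all genes tested. The edgeR adjusted p was 0.9998 for each member, and the groups overlapped for each, while 5.22% of all genes did not overlap in the higher direction and 5.7% in the lower.

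Klf2 stood at 1101, 1963 and 1569 CPM in KO Ly6Clo replicates 1 to 3, against 1253, 1643 and 1388 CPM in WT Ly6Clo. The KO values span the WT ones on both sides. The log2 fold change was 0.11 (SE 0.32, 95% interval -0.61 to 0.84) in the fit by group alone. That interval leaves room for a change of up to 1.79-fold upward or to 0.653 of the WT level. With a term for replicate number added, the log2 fold change was 0.07 and the SE was smaller, at 0.19.

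Klf4 was at 93.9, 178 and 135 CPM in KO Ly6Clo against 108, 149 and 151 CPM in WT Ly6Clo. Its means were nearly equal, at 136 ± 42.2 CPM in KO Ly6Clo and 136 ± 24.4 in WT Ly6Clo (SD, n = 3 each). In the fit by group alone the interval of its log2 fold change, -1.07 to 1.06, was the widest of the 7. The sign of the change, -0.00, turned under other settings. With a term for replicate number the SE of Klf4 was 0.32, and that of Klf7 was larger, at 0.34.

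Klf6 was at 479, 933 and 700 CPM in KO Ly6Clo against 484, 1032 and 653 CPM in WT Ly6Clo. Replicates 1, 2 and 3 lie close to their counterparts of the same number, and replicate 1 is the lowest in both groups. The log2 fold change was -0.04 (SE 0.41).

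Klf3, the repressor, was at 405, 720 and 620 CPM in KO Ly6Clo against 541, 862 and 609 CPM in WT Ly6Clo, a log2 fold change of -0.21 (SE 0.28). Klf10 had the narrowest interval of the 7, at 353, 302 and 288 CPM in KO Ly6Clo against 364, 455 and 304 CPM in WT Ly6Clo, a log2 fold change of -0.25 (95% interval -0.65 to 0.14). Every KO library lay below the median WT library, while the lowest WT library was below the highest KO one. Klf7 was at 17.7, 28.0 and 33.9 CPM in KO Ly6Clo against 20.5, 30.0 and 16.4 CPM in WT Ly6Clo, a log2 fold change of 0.25 (SE 0.35). Klf13 was at 283, 313 and 216 CPM in KO Ly6Clo against 182, 343 and 203 CPM in WT Ly6Clo, a log2 fold change of 0.16 (SE 0.25). Reads of overlapping genes can enter these values, since the strand setting of the counting is not given. C230096K16Rik, which lies over Klf3 on the same strand, was at 14.7 CPM in KO Ly6Clo and 24.7 in WT Ly6Clo. Gm27252, which lies over Klf13 on the opposite strand, was at 8.17 CPM in KO Ly6Clo and 12.1 in WT Ly6Clo.

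**Figure D2:**
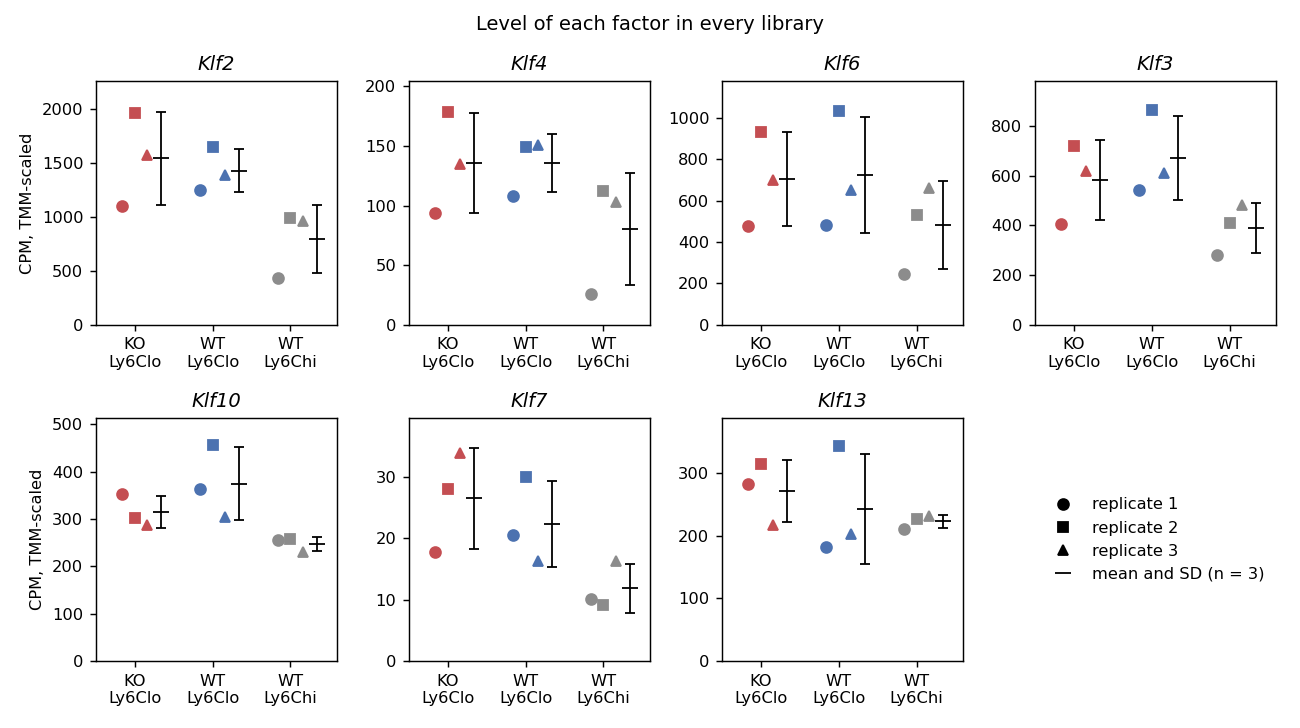
CPM on TMM-scaled library sizes of each member, one point per library, with the mean and SD of each group of 3 beside the points (linear axes from 0). KO Ly6Clo and WT Ly6Clo overlap for all 7 members, while WT Ly6Chi lies below WT Ly6Clo without overlap for Klf2, Klf3, Klf10 and, by less than the counting error, Klf7.

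Between the wild-type subsets all 7 members had a positive fold change in WT Ly6Clo against WT Ly6Chi, a sign shared by 49.8% of all genes. Their median log2 fold change was 0.76, against -0.00 over all genes tested. Of the 7, 0 were called by edgeR, where 3.51% of all genes were, and 4 (Klf2, Klf3, Klf7 and Klf10) had an unadjusted p under 0.05 in the higher direction, as 9.39% of all genes did. In the same 4 members every WT Ly6Clo library exceeded every WT Ly6Chi library, which held for 13.6% of all genes. DESeq2 called 1 member, Klf10 (adjusted p = 0.027; 10.7% of all genes called), and limma-voom 0 (4.38% of all genes).

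Marker lists of other cells of the spleen were compared between the same subsets. Of 10 B cell markers 9 had a positive fold change (median 1.73 on the log2 scale, 0 called by edgeR), with a summed level of 590.2 to 799 CPM in WT Ly6Clo against 425 to 629.5 CPM in WT Ly6Chi. Of 8 NK cell markers 7 were positive (median 1.81, 0 called), at 56.5 to 238 CPM in WT Ly6Clo against 26.9 to 93.3 CPM in WT Ly6Chi. Neutrophil markers ran the other way, with 5 of 10 called lower (median -6.73), at 362 to 465 CPM in WT Ly6Clo against 612 to 1204 CPM in WT Ly6Chi. Most of that sum in WT Ly6Clo was Csf3r (356, 447 and 459 CPM), which was not among the genes called. Those were S100a8, S100a9, Ltf, Camp and Ngp. Whether neutrophils or the monocytes themselves expressed them cannot be told from bulk RNA. Of 10 T cell markers 3 were positive (median -0.51, 0 called), at 64.2 to 183 CPM in WT Ly6Clo against 104 to 181 CPM in WT Ly6Chi. All 9 erythroid markers were positive (median 2.63, 0 called). Their sum was 411 to 3397 CPM in WT Ly6Clo against 139 to 239 CPM in WT Ly6Chi. Of 10 red pulp macrophage markers 8 were positive (median 0.92, 0 called), and of 10 dendritic cell markers 3 (median -0.26, 1 called lower). The sums overlap for the B, NK, T, red pulp macrophage and dendritic lists and not for the neutrophil and erythroid lists. None of these markers was at 0 in all 9 libraries. In KO Ly6Clo against WT Ly6Clo edgeR called 0 genes of these lists of other cells. Positive there were 9 of 9 erythroid, 7 of 10 neutrophil, 6 of 10 dendritic and 3 of 10 B cell markers. So were 3 of 10 T cell, 1 of 8 NK cell and 0 of 10 red pulp macrophage markers, against 52.6% of all genes. The part of such cells in the levels of the members was not tested.

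Klf2 was at 1253, 1643 and 1388 CPM in WT Ly6Clo against 434, 987 and 960 CPM in WT Ly6Chi. All Ly6Clo libraries were above all Ly6Chi libraries, and Ly6Chi replicate 1 was far below the other two. Means were 1428 ± 198 CPM in WT Ly6Clo and 794 ± 312 in WT Ly6Chi (SD, n = 3 each), with a log2 fold change of 0.85 (SE 0.32, 95% interval 0.12 to 1.58, edgeR adjusted p = 0.21).

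Klf10 had the smallest adjusted p of the 7, which did not pass the threshold in edgeR. It was at 364, 455 and 304 CPM in WT Ly6Clo against 256, 257 and 231 CPM in WT Ly6Chi. The Ly6Chi values lie close together and below each Ly6Clo value (log2 fold change 0.60, SE 0.18, edgeR adjusted p = 0.11).

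Klf3 was at 541, 862 and 609 CPM in WT Ly6Clo against 282, 408 and 481 CPM in WT Ly6Chi, again without overlap (log2 fold change 0.78, SE 0.29, edgeR adjusted p = 0.19). Klf7 was at 20.5, 30.0 and 16.4 CPM in WT Ly6Clo against 10.1, 9.12 and 16.4 CPM in WT Ly6Chi (log2 fold change 0.91, SE 0.35, edgeR adjusted p = 0.22). For Klf7 the lowest Ly6Clo library, with 859 counts, exceeded the highest Ly6Chi library, with 803 counts, by less than the counting error, so the 2 groups touch.

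Klf4 and Klf6 overlapped between the subsets. Klf4 was at 108, 149 and 151 CPM in WT Ly6Clo against 26.2, 112 and 103 CPM in WT Ly6Chi (log2 fold change 0.76, SE 0.47, edgeR adjusted p = 0.46). One library, Ly6Chi replicate 1, holds much of that difference: without it the log2 fold change was 0.35. Klf6 was at 484, 1032 and 653 CPM in WT Ly6Clo against 246, 532 and 663 CPM in WT Ly6Chi (log2 fold change 0.59, SE 0.41, edgeR adjusted p = 0.50). Without Ly6Chi replicate 1 its log2 fold change was 0.29, and without Ly6Clo replicate 2 it was 0.24. Klf13 was nearly level, at 182, 343 and 203 CPM in WT Ly6Clo against 211, 227 and 231 CPM in WT Ly6Chi (log2 fold change 0.12, SE 0.25, edgeR adjusted p = 0.86), and its sign turned without WT Ly6Clo replicate 2 (-0.22).

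**Figure D3:**
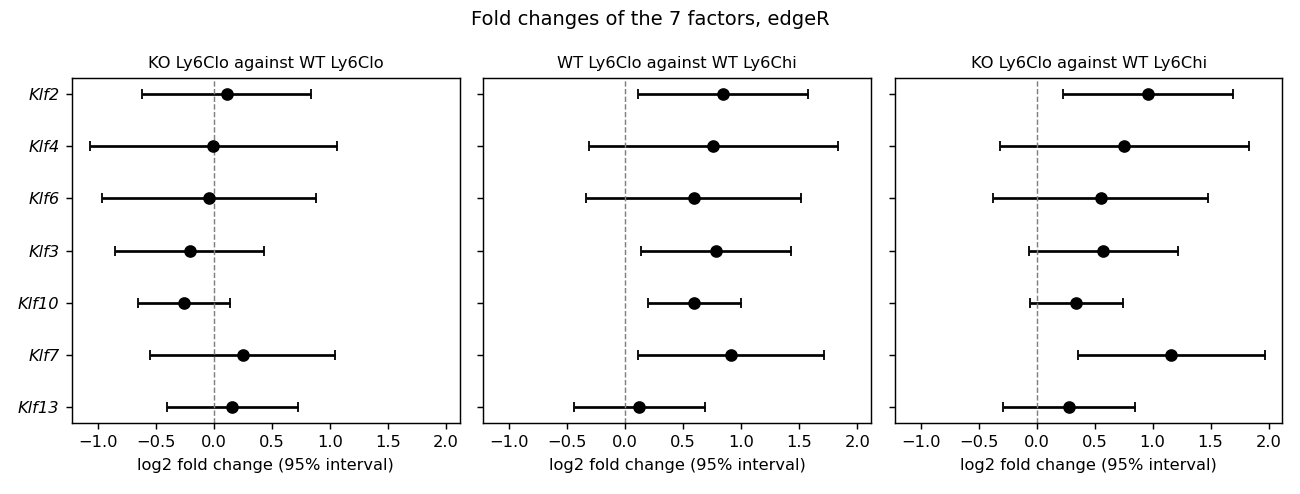
Log2 fold changes of the 7 members (points) with 95% intervals (bars) from edgeR in the 3 comparisons, and a dashed line at no change. The intervals of Klf2, Klf3, Klf10 and Klf7 lie above 0 in WT Ly6Clo against WT Ly6Chi and those of Klf2 and Klf7 in KO Ly6Clo against WT Ly6Chi, before any adjustment for the number of genes, and all 7 span 0 in KO Ly6Clo against WT Ly6Clo.

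The KO Ly6Clo monocytes were also set against WT Ly6Chi monocytes, a comparison that shares its libraries with the other two. Of the 7 members 0 were called by edgeR (4.52% of all genes), 2 had an unadjusted p under 0.05 in the higher direction (9.05% of all genes), and 3 (Klf2, Klf7 and Klf10) did not overlap (11.3% of all genes). All 7 fold changes were positive, against 52.6% of all genes, with a median of 0.58 on the log2 scale against 0.04 over all genes tested. Klf7 had a log2 fold change of 1.16 (SE 0.36, edgeR adjusted p = 0.12) and was the member called by DESeq2 (adjusted p = 0.024; 10.6% of all genes called). Klf2 had a log2 fold change of 0.96 (SE 0.32, edgeR adjusted p = 0.16). The other 5 lay between 0.28 for Klf13 and 0.76 for Klf4. Single libraries carried much of these: Klf4 was at 0.34 without WT Ly6Chi replicate 1 and 0.50 without KO Ly6Clo replicate 2, where Klf6 (0.55) was at 0.24 and 0.28 and Klf3 (0.58) at 0.39 and 0.38. Klf13 was at 0.15 without KO Ly6Clo replicate 2. Of the members limma-voom called 0 (4.95% of all genes).

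The libraries of 1 group differed in a pattern shared by 4 members. Replicate 1 was the lowest library of its group in 3 of 3 groups for Klf2, Klf3, Klf4 and Klf6, and so it was for the summed immediate early genes. The share of all genes with this pattern was not counted, so it was not shown to be particular to these members. Over all genes tested, deviations of replicate 1 from the group mean correlated at 0.46 between KO Ly6Clo and WT Ly6Clo. They correlated at 0.35 between WT Ly6Clo and WT Ly6Chi and at 0.33 between KO Ly6Clo and WT Ly6Chi. The summed markers of T cells, NK cells and neutrophils, 3 of 7 lists of other cell types, were likewise lowest at replicate 1 in each group. Those of B cells, erythroid cells, dendritic cells and red pulp macrophages were lowest at replicate 1 in 2 of 3 groups each. The B cell sum was mostly Ighm, and in WT Ly6Clo both were lowest at replicate 3, at 590 and 419 CPM. A single gene, Csf3r, made up most of the neutrophil sum in the Ly6Clo groups. It held 170, 269 and 328 of 171, 282 and 363 CPM in KO Ly6Clo. In WT Ly6Clo it held 356, 447 and 459 of 362, 450 and 465 CPM. Over KO Ly6Clo, WT Ly6Clo and WT Ly6Chi, replicate 1 stood at 31.3, 64.2 and 104 CPM of T cell markers, below 111, 116 and 147 CPM as the next lowest library. For the NK cell markers it stood at 10.2, 56.5 and 26.9 CPM, below 73.2, 166 and 69.4 CPM. Replicate 1 was lowest in 1 group for Klf7, 2 for Klf13 and 0 for Klf10. For Klf7 it was below the group mean in all 3 groups, at -0.53, -0.07 and -0.18 in log2 CPM over KO Ly6Clo, WT Ly6Clo and WT Ly6Chi. In WT Ly6Chi, replicate 1 lay 0.78 below the group mean in log2 CPM for Klf2, 1.36 below for Klf4, 0.85 below for Klf6 and 0.44 below for Klf3, and 2.06 below for the immediate early sum. Across the 9 libraries, which also share the difference between subsets, the Pearson correlation of log2 levels was 0.96 between Klf2 and Klf4, 0.93 between Klf3 and Klf6 and 0.92 between Klf2 and Klf3. Klf7 correlated with Klf2, Klf3, Klf4 and Klf6 at 0.63 to 0.83. Klf10 and Klf13 correlated with the other members at 0.34 to 0.58. These are descriptions over 9 libraries of 3 groups, with no test. The part of the immediate early genes and of other cell types in these differences was not tested.

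With replicate 1 of every group left out, a setting chosen after the data were seen, Klf2 in WT Ly6Clo against WT Ly6Chi had a log2 fold change of 0.64 (edgeR adjusted p = 0.11) and Klf4 one of 0.48 (edgeR adjusted p = 0.25). In KO Ly6Clo against WT Ly6Chi Klf2 was then called, with a log2 fold change of 0.86 (edgeR adjusted p = 0.043), where 3.8% of all genes were called. The library numbers fall into 2 runs, 17 and 18, which split the groups unevenly. Klf2 averaged 1448 CPM in 2 WT Ly6Clo libraries against 434 CPM in 1 WT Ly6Chi library of run 17, and 1388 CPM in 1 WT Ly6Clo library against 974 CPM in 2 WT Ly6Chi libraries of run 18. The direction for Klf2 was thus the same in both runs, while Klf13 was at 203 CPM in WT Ly6Clo against 229 CPM in WT Ly6Chi in run 18. The WT Ly6Chi library of run 17 is replicate 1, the lowest of its group for Klf2. Within WT Ly6Chi, run and replicate 1 cannot be told apart. What a run of library numbers stands for is not given in the labels.

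**Figure D4:**
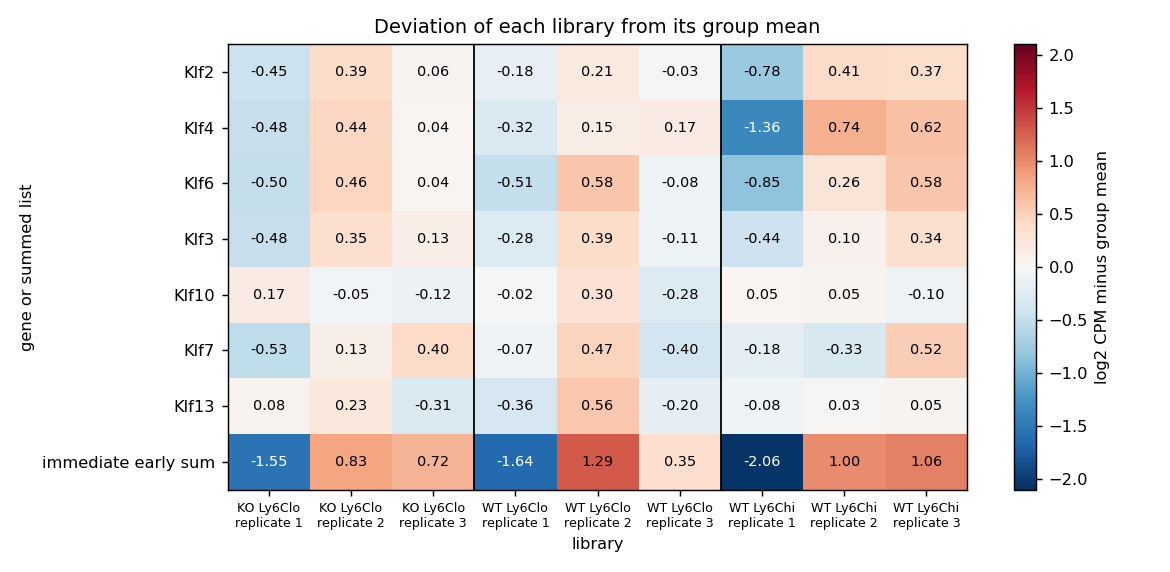
Difference of each library from the mean of its group in log2 CPM, for the 7 members and for the summed immediate early genes, with red for above and blue for below the group mean. Replicate 1 is blue in all 3 groups for Klf2, Klf4, Klf6, Klf3 and the immediate early sum, and pale or mixed for Klf10 and Klf13. For Klf7 it is below the group mean in all 3 groups, at -0.53 in KO Ly6Clo, -0.07 in WT Ly6Clo and -0.18 in WT Ly6Chi.

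The genes whose levels ran most like each member were sought among 6629 protein-coding genes with a mean of at least 20 CPM, by the Pearson correlation of log2(CPM + 1) over the 9 libraries. The correlations are given without a test, since the 9 libraries fall into 3 groups and the genes named were picked as the highest of 6629. Klf2 ran closest with Socs3 (0.990), an inhibitor of cytokine signalling, Runx2 (0.985), a runt-domain transcription factor, and Polr2a (0.984), the largest subunit of RNA polymerase II. Socs3 averaged 433 CPM in KO Ly6Clo, 439 in WT Ly6Clo and 215 in WT Ly6Chi. Klf3 ran closely with Nuak2 (0.993), a kinase, and Copg1 (0.990), a coat protein of Golgi vesicles. Klf4 ran closest with Hif1an, Srrm2 and Sema4d, at 0.983 to 0.985. Klf6 ran closest with Btg1 (0.991), an inhibitor of proliferation at 1529 CPM in KO Ly6Clo, 1586 in WT Ly6Clo and 805 in WT Ly6Chi, followed by Nfe2l1 and Ikbkg. The fits were looser for Klf7, with Rnps1 (0.957), Fbxo21 and Pcna, and for Klf13, with Cyhr1 (0.955), Acsl1 and Cyfip1. Klf10 ran closest with Tnf (0.973), the cytokine, which averaged 17.3 CPM in KO Ly6Clo, 40.1 in WT Ly6Clo and 4.39 in WT Ly6Chi, and then with Plgrkt and Mrm1.

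Of the other 19 Klf and Sp genes, 11 passed the filter and 0 were called by edgeR in any of the 3 comparisons. Unadjusted p lay under 0.05 for 0 of them in KO Ly6Clo against WT Ly6Clo (6.16% of all genes), 0 in WT Ly6Clo against WT Ly6Chi (18.2%) and 2 in KO Ly6Clo against WT Ly6Chi (16.9%), and DESeq2 called 0, 0 and 1 (1.51%, 10.7% and 10.6% of all genes). These shares of all genes also hold for the counts at an unadjusted p and by DESeq2 of the lists that follow. Sp3, a widely expressed relative of Sp1, was at 115 ± 2.79 CPM in KO Ly6Clo, 104 ± 9.30 in WT Ly6Clo and 128 ± 13.2 in WT Ly6Chi (SD, n = 3 each). Klf11, the relative of Klf10 in the TGF-beta-inducible branch, was at 66.0 ± 24.7 CPM in KO Ly6Clo, 93.1 ± 57.6 in WT Ly6Clo and 62.6 ± 12.8 in WT Ly6Chi. Klf1, the erythroid factor, was chosen after its values were seen. It was at 0.559, 28.9 and 62.9 CPM in KO Ly6Clo, 0.678, 11.6 and 7.96 in WT Ly6Clo and 0.286, 2.38 and 0.735 in WT Ly6Chi (edgeR adjusted p = 0.16 in KO Ly6Clo against WT Ly6Chi). The summed level of 9 erythroid markers, Klf1 among them, was 1.82, 7732 and 1689 CPM in KO Ly6Clo, 411, 3397 and 537 in WT Ly6Clo and 202, 239 and 139 in WT Ly6Chi. The part of red cells in the level of Klf1 was not tested.

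Among 15 genes that act upstream of the family (ERK5 and MEF2 factors, Foxo factors, serum response factor, and the receptors and Smads of TGF-beta), 1 was called higher (1.88% of all genes) and 0 lower in WT Ly6Clo against WT Ly6Chi. In KO Ly6Clo against WT Ly6Clo and in KO Ly6Clo against WT Ly6Chi 0 were called, with 0 and 3 at an unadjusted p under 0.05 and 0 and 2 called by DESeq2. The gene called was Tgfbr1, the type I receptor of TGF-beta, at 537, 683 and 541 CPM in WT Ly6Clo against 105, 204 and 301 CPM in WT Ly6Chi. Its groups do not overlap (log2 fold change 1.53, SE 0.33, edgeR adjusted p = 0.040). In KO Ly6Clo it was at 419, 520 and 456 CPM (log2 fold change 1.19 against WT Ly6Chi, edgeR adjusted p = 0.085). Of 18 alternatives, 10 kept the call between the wild-type subsets. Leaving out single libraries ended it in edgeR for WT Ly6Clo replicate 1 (adjusted p = 0.096), 2 (0.12) or 3 (0.099), for WT Ly6Chi replicate 2 (0.14) and for KO Ly6Clo replicate 2 (0.061) or 3 (0.063).

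Of 12 cofactors 11 passed the filter, and of 8 genes for degradation or its reversal all 8 did. In the 3 comparisons edgeR called 0 of either list. Of the cofactors 0, 1 and 1 had an unadjusted p under 0.05 in the order KO Ly6Clo against WT Ly6Clo, then WT Ly6Clo against WT Ly6Chi, then KO Ly6Clo against WT Ly6Chi, and DESeq2 called 0 in each. Of the degradation genes 0, 1 and 0 had one in the same order, and DESeq2 called 0, 1 and 0. Ctbp1, the CtBP partner of Klf3, was at 268 ± 40.6 CPM in KO Ly6Clo, 271 ± 28.6 in WT Ly6Clo and 235 ± 23.2 in WT Ly6Chi (SD, n = 3 each). Ncor1, a nuclear corepressor, was at 176 ± 12.9 CPM in KO Ly6Clo, 172 ± 6.35 in WT Ly6Clo and 155 ± 32.0 in WT Ly6Chi. Itch, a ubiquitin ligase, was at 386 ± 23.3 CPM in KO Ly6Clo, 386 ± 36.0 in WT Ly6Clo and 301 ± 91.5 in WT Ly6Chi. The deubiquitinase Usp7 was at 114 ± 50.4 CPM in KO Ly6Clo, 114 ± 28.4 in WT Ly6Clo and 115 ± 54.7 in WT Ly6Chi.

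Of 14 genes described as targets of these factors in other cells, 3 were called lower (1.62% of all genes) and 0 higher in WT Ly6Clo against WT Ly6Chi. In KO Ly6Clo against WT Ly6Chi 3 were called lower (2.46% of all genes) and 0 higher. In KO Ly6Clo against WT Ly6Clo 0 were called by edgeR, 2 had an unadjusted p under 0.05 and 1 was called by DESeq2. The median log2 fold change of the list was -0.33 in KO Ly6Clo against WT Ly6Clo, -0.41 in WT Ly6Clo against WT Ly6Chi and -0.71 in KO Ly6Clo against WT Ly6Chi.

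Lgals3 encodes galectin-3 and is repressed by Klf3 in mice. It was at 603, 522 and 483 CPM in KO Ly6Clo, 754, 803 and 669 CPM in WT Ly6Clo, then 1433, 1346 and 1071 in WT Ly6Chi, so that no pair of groups overlapped. It was lower in KO Ly6Clo against WT Ly6Chi (log2 fold change -1.26, SE 0.17, edgeR adjusted p = 0.0041), in all 18 alternatives. Between WT Ly6Clo and WT Ly6Chi the log2 fold change was -0.79 (SE 0.16, edgeR adjusted p = 0.035), and the call was kept in 8 of 18 alternatives. By edgeR it was lost without any 1 library except KO Ly6Clo replicate 1 (adjusted p from 0.051 to 0.14). In KO Ly6Clo against WT Ly6Clo the log2 fold change was -0.47 (edgeR adjusted p = 0.65).

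Itgb7, the beta 7 integrin, was at 468, 496 and 415 CPM in WT Ly6Clo against 1065, 957 and 788 CPM in WT Ly6Chi (log2 fold change -1.03, SE 0.19, edgeR adjusted p = 0.021). Of 18 alternatives, 11 kept this call. In edgeR it was lost with WT Ly6Clo replicate 1 (adjusted p = 0.096), 2 (0.066) or 3 (0.098) or WT Ly6Chi replicate 1 (0.072) or 2 (0.083) left out. In KO Ly6Clo Itgb7 was at 576, 732 and 507 CPM (log2 fold change -0.63 against WT Ly6Chi, edgeR adjusted p = 0.11).

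Nos3, the endothelial nitric oxide synthase and a Klf2 target in endothelium, was near the limit of counting. It had 8 counts in the KO Ly6Clo libraries together, 128 in WT Ly6Clo and 65 in WT Ly6Chi. Per library these were 0.0155, 0.0421 and 0.0176 CPM in KO Ly6Clo, 0.532, 0.497 and 0.458 in WT Ly6Clo and 0.340, 0.542 and 0.408 in WT Ly6Chi. The KO libraries lie below all others, and edgeR called KO Ly6Clo lower than WT Ly6Chi (adjusted p = 0.027) but not lower than WT Ly6Clo (adjusted p = 0.18). The call was lost in 14 of the 17 alternatives that kept the gene, by edgeR whichever single library was left out (adjusted p from 0.060 to 0.12). Nos3 overlaps Atg9b and the antisense gene Gm15587, and reads cannot be assigned to either strand here.

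The 3 immediate early genes of the highest level were Dusp1, Junb and Fos, of which edgeR called 0 in any of the comparisons, as it did of the whole list of 16. Unadjusted p lay under 0.05 for 0, 2 and 1 of the 16 in the order of comparisons given for the cofactors, and DESeq2 called 0, 1 and 0. Fos, an AP-1 subunit, was at 18.9, 1917 and 1776 CPM in KO Ly6Clo, 136, 3820 and 2248 in WT Ly6Clo and 328, 4352 and 4968 in WT Ly6Chi. Dusp1, a phosphatase of MAP kinases, was at 197, 3891 and 4564 CPM in KO Ly6Clo, 581, 7320 and 5474 in WT Ly6Clo and 227, 5164 and 5341 in WT Ly6Chi. Replicate 1 is the lowest library of each group for both.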

How the data were processed

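RNA-seq counts of 9 libraries were used, 3 each of KO Ly6Clo, WT Ly6Clo and WT Ly6Chi, with groups and replicate numbers from the titles. Counts were deposited by the authors as whole reads per gene, not normalized. The CPM, FPKM and TPM values deposited by the authors beside them equal those recomputed from counts and gene length (largest difference 7e-11). Deposited CPM and FPKM entered no test, and deposited TPM ordered the members by level. Per the submitters' processing notes the tools were bcl2fastq, the aligner STAR 2.5.1a, featureCounts 1.4.6-p5 of Subread, Salmon 0.8.2, limma and edgeR, on GRCm38 (mm10). Roles of the tools, strand and the handling of reads of several genes are not given in the sources used here. Symbols came from GENCODE M21 on the same build for 55141 IDs (99.38%), and gene coordinates of the members were identical there.

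In R 4.3.3, edgeR 4.0.16 was run on the counts: filterByExpr by group (minimum count 10, 18341 genes), TMM scaling, a model of the 3 groups fitted to all 9 libraries, and the quasi-likelihood test with Benjamini-Hochberg adjustment over all genes tested. A gene is called at an adjusted p under 0.05. The SE was taken from the F statistic. Alternatives were RLE scaling, other filters, DESeq2 1.42.0, limma-voom (limma 3.58.1), a fit of the 2 groups compared, a replicate block, the 2 runs of library numbers as a term, each library left out, and, chosen after seeing the data, replicate 1 of every group left out. Libraries of 1 group differed by a chi-square per gene of 51.4 to 528, so none looked like a repeat deposit. Counting error of the smallest member count (437) was 4.78%, without molecular identifiers and so for counting only.

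Same-numbered libraries of KO Ly6Clo and WT Ly6Clo deviated together over all genes tested (correlations 0.46, 0.35 and 0.12, each over 0.1, a limit chosen here). The check cannot tell paired animals from steps of preparation shared by number. The block changed no member call in that comparison but made the SE of every member smaller. Intervals and SE of that comparison are without the block unless it is named. The other comparisons did not meet this check, which does not exclude a pairing in them.

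All 7 members are named. Of each KLF pathway list up to 4 called genes by smallest adjusted p are named, or the 2 of the highest level, and of the immediate early list the 3 of the highest level. The 3 most similar protein-coding genes per member exclude Gm and Rik symbols. Some genes these rules name are not reported here. Members and lists were chosen with earlier results of these data known.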

Additional observations from a re-analysis of the deposited data

How the results depend on the processing

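No member was called by edgeR in any comparison, whichever single library was left out (0 to 0 of 7). By DESeq2 1 was called in WT Ly6Clo against WT Ly6Chi and 1 in KO Ly6Clo against WT Ly6Chi; with the replicate block, 2 (Klf2 and Klf3, edgeR adjusted p = 0.046 each) and 1 (Klf2, edgeR adjusted p = 0.035); without replicate 1 of every group, 1 in KO Ly6Clo against WT Ly6Chi. The check for pairing by number was not met in these comparisons, which does not exclude a pairing. Same-numbered correlations were 0.35, 0.14 and 0.07 between WT Ly6Clo and WT Ly6Chi. Between KO Ly6Clo and WT Ly6Chi they were 0.33, 0.24 and -0.01. In each, 3 of 6 libraries correlated best with their own number. By its sex-linked genes, replicate 3 of WT Ly6Chi came from other mice than replicate 3 of the Ly6Clo groups. The block changed no other member call, and with it 949 and 977 of all genes were called.

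Over all genes, 13 were called in KO Ly6Clo against WT Ly6Clo, 54 with no filter, 27 with 1 CPM in 3 libraries, 277 by DESeq2, 0 in a fit of the 2 groups, 2 without replicate 1 of every group, and 2 to 21 with single libraries left out. In WT Ly6Clo against WT Ly6Chi it was 643, 1960 by DESeq2 and 239 to 847 with single libraries left out. In KO Ly6Clo against WT Ly6Chi it was 829, 1951 by DESeq2 and 379 to 818.

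The log2 fold changes of members in KO Ly6Clo against WT Ly6Clo turned sign in at least 1 alternative for 5 members, while Klf7 (0.030 to 0.54) and Klf10 (-0.39 to -0.077) kept theirs in all 18. Klf4 (-0.0034) became 0.0013 with 1 CPM in 3 libraries, 0.0026 in a fit of the 2 groups, 0.021 with the run term and 0.067 without replicate 1 of every group, where Klf13 became -0.039. With single libraries left out it ran from -0.12 to 0.29 for Klf2, -0.41 to 0.033 for Klf3, -0.27 to 0.19 for Klf4, -0.32 to 0.33 for Klf6 and -0.030 to 0.51 for Klf13. In WT Ly6Clo against WT Ly6Chi that of Klf13 ran from -0.22 to 0.31. The cause was not tested. In both comparisons with WT Ly6Chi the sign of every other member value was kept in all 18 alternatives, and RLE scaling moved the median of all genes by under 0.01 on the log2 scale. Each member value rests on at least 437 counts in a library, and counting error limits the gap between the Klf7 groups in WT Ly6Clo against WT Ly6Chi (859 against 803 counts).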
